A study of Homo sapiens with 8 samples.

Results

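Complex I of the respiratory chain was followed in EPC2-hTERT, a telomerase-immortalized line of human esophageal keratinocytes that the labels give as wild type. The genes were taken by symbol: all entries of the gene table that start with NDUFA, NDUFB, NDUFC, NDUFS or NDUFV, without NDUFA4 and NDUFA4L2. This gave 48 of the 25369 genes listed, of which 37 encode subunits and 7 encode assembly factors of the NDUFAF type. The other 4 are the antisense RNAs NDUFA6-AS1 and NDUFB2-AS1, the pseudogene NDUFAF4P1 and the readthrough transcript NDUFC2-KCTD14. Subunits encoded by mitochondrial DNA were not analysed here.

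Cultures were grown as a stratified epithelium at the air-liquid interface. One group of 4 libraries came from cultures given 1 mM dimethyloxalylglycine (DMOG) for 18 h, and the other 4 from cultures given DMSO, the vehicle. In both groups the cells had 2 days to reach confluence, 5 days in medium with 1.8 mM CaCl2 and 4 days in air. All samples are of 1 cell line, and the labels do not tell whether replicates grew as separate cultures. The p-values therefore refer only to the spread between these libraries, which may be technical.

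Complex I is the large entry enzyme of the respiratory chain: it oxidizes NADH, reduces ubiquinone and pumps protons across the inner mitochondrial membrane. It is built from modules. The N module binds NADH, the Q module reduces ubiquinone, and the membrane arm is put together from parts named after the mitochondrially encoded subunits ND1, ND2, ND4 and ND5. A conserved core carries the flavin, the iron-sulfur clusters and the proton channels, supernumerary subunits surround it, and assembly factors help to build the enzyme but are absent from the finished one. DMOG is a precursor of a 2-oxoglutarate analogue that inhibits prolyl hydroxylases and so stabilizes hypoxia-inducible factors (HIFs). HIF activity is known to move cells from respiration toward glycolysis.

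Libraries held 31245695 to 39931833 reads, recovered from the RPKM values (reads scaled to gene length and to library size). DMOG replicate 2 lay near the vehicle libraries. CA9, a carbonic anhydrase induced by HIF, was at 25.2, 2.56, 9.97 and 57.5 RPKM in DMOG libraries 1 to 4, against 0.925, 1.29, 0.129 and 0.585 RPKM in vehicle libraries 1 to 4. NDUFA4L2, a mitochondrial HIF target, was at 183, 48.1, 87.8 and 310 RPKM in DMOG libraries and at 21.8, 19.8, 7.25 and 23.9 RPKM in vehicle libraries. The group means in the authors' deposited table were reproduced from replicates 1, 3 and 4 of each group with a weight of 0 for replicate 2. Tests are therefore given for those 6 libraries and for all 8. All 8 epithelial markers examined were present, at 36.5 RPKM or more in every library. KRT5, KRT14 and DSG3 of these were called higher and 0 lower after scaling between libraries; in the RPKM as deposited 0 were called higher and TP63 was called lower. Of 14 markers of other cell types, the macrophage gene CD68 and the collagen gene COL1A1 were present and called higher (CD68 not in the RPKM as deposited), and the 14 together summed to 82.2 to 118 RPKM in DMOG libraries and 58.1 to 86.8 RPKM in vehicle libraries. The collagen partners COL1A2 and COL3A1, the leukocyte gene PTPRC and the other markers beside VWF and PMEL reached at most 0.038 RPKM, and LUM and CDH5 were at 0 in every library. VWF reached 1.95 and PMEL 0.933 RPKM. The part of these markers in the results was not tested. In bulk RNA, fewer cells of a type and less RNA per cell cannot be told apart.

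Complex I genes that passed the test were all lower after DMOG, with NDUFAF2 and NDUFB9 farthest from zero on the log2(RPKM + 1) scale, where the pseudocount of 1 understates changes of genes at a few RPKM. In the 6 libraries, 16 of 37 subunits fell (adjusted p under 0.05, limma), 0 rose and 21 were not called. The share of all 11122 genes tested that was called lower was 16.1%, and 13.7% were called higher. All 37 subunits and all 7 assembly factors had passed the minimum of 1 RPKM in at least 4 libraries. The median log2 fold change of the subunits was -0.33 on the log2(RPKM + 1) scale, against 0.00 for all genes tested, and 35 of 37 were below zero. At an unadjusted p under 0.05, 22 subunits were lower and 1 higher, against 2595 lower and 2399 higher of all 11122 genes tested. Of the 7 assembly factors, 4 fell, 0 rose and 3 were not called, with a median of -0.53; at an unadjusted p under 0.05, 5 were lower and 0 higher.

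The number of calls depended on single libraries. The share of all genes called lower in fits that left out 1 of the 6 libraries is not given here. A loss particular to complex I therefore cannot be told from fewer calls among all genes. The 16 subunits lower became 4 without DMOG replicate 1, 5 without vehicle replicate 1, 7 without vehicle replicate 3 and 5 without vehicle replicate 4, while the median stayed between -0.39 and -0.30. The calls of NDUFB9, NDUFAB1, NDUFB2, NDUFA7, NDUFAF2 and NDUFAF3 were kept whichever of the 6 libraries was left out. In all 8 libraries limma called 0.0% of genes and no complex I gene, and limma-voom on recovered reads also called 0 subunits. At an unadjusted p under 0.05 limma gave 19 subunits and 5 assembly factors, all lower. Of all 11122 genes tested, 1813 were lower and 1556 higher at that unadjusted p in the 8 libraries. The median of the subunits there was -0.26, and leaving out DMOG replicate 2 alone gave 18 subunits lower.

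The order of the 8 libraries was also compared, without a test. After scaling, all 4 DMOG libraries were below all 4 vehicle libraries for 15 of 37 subunits and 4 of 7 assembly factors, against 7.33% of all genes tested. The opposite ordering held for 0 subunits and 0 assembly factors, against 5.04% of all genes. DMOG libraries 1 to 4 had 31, 20, 26 and 30 of the 37 subunits below every vehicle library, and 2, 0, 3 and 2 above every one. DMOG replicate 2 had the fewest on either side. Summed over the 37 subunits, the deposited RPKM was 1157, 1635, 1286 and 1103 in DMOG libraries 1 to 4, against 1809, 1652, 1858 and 1890 in vehicle libraries 1 to 4. All 4 DMOG sums lay below all 4 vehicle sums, and that of DMOG replicate 2 was just under the lowest of them. After scaling, the gap was smaller, with subunit sums of 1272, 1557, 1391 and 1310 in DMOG libraries 1 to 4. Those of vehicle libraries 1 to 4 were 1620, 1651, 1743 and 1674. As deposited, the sum over the 7 assembly factors was 23.7, 56.8, 31.0 and 17.2 RPKM in DMOG libraries, against 63.5, 59.7, 61.9 and 67.1 RPKM in vehicle libraries. After scaling it was 26.1, 54.1, 33.5 and 20.4 in DMOG libraries, against 56.9, 59.7, 58.0 and 59.4 in vehicle libraries.

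**Figure D1:**
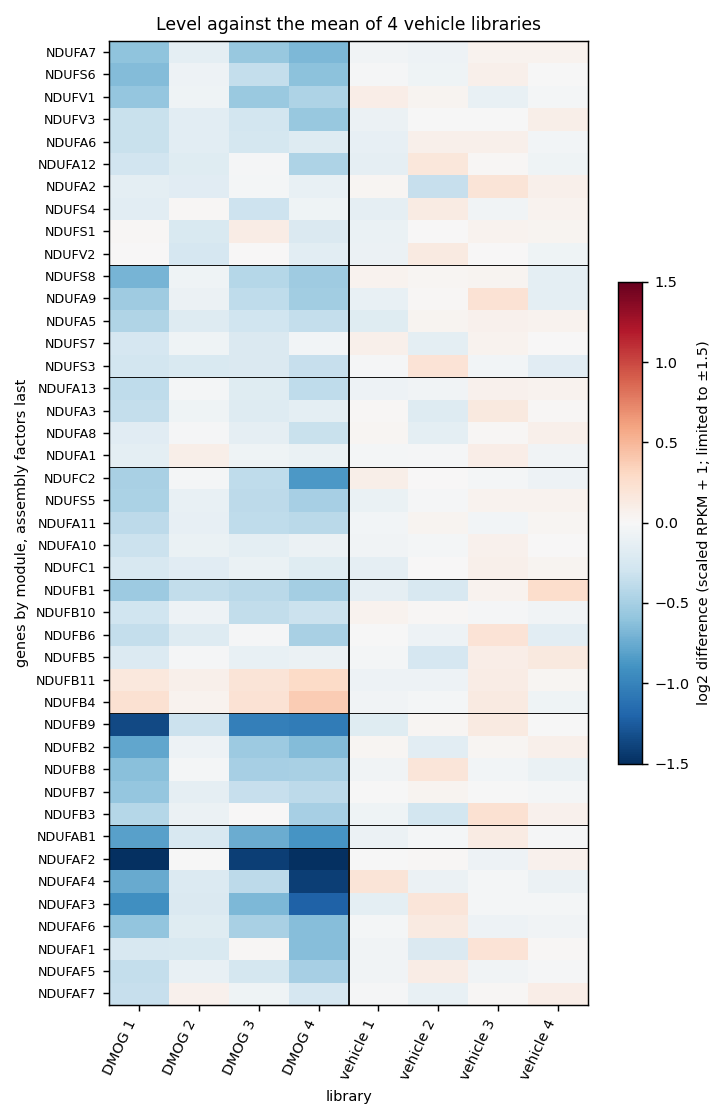
Log2 difference of each complex I gene from its mean over the 4 vehicle libraries (scaled RPKM + 1), for 36 of the 37 subunits ordered by module and 7 assembly factors at the bottom, in DMOG libraries 1 to 4 on the left and vehicle libraries 1 to 4 on the right. DMOG libraries 1, 3 and 4 are mostly blue (lower), DMOG replicate 2 is pale, and NDUFB4 and NDUFB11 are red in DMOG libraries 1, 3 and 4, a direction that turns in the RPKM as deposited.

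The scaling between libraries sets how many genes pass. The main values were divided by median-ratio factors, which centre the genes tested. In the RPKM as deposited, the median of all genes was -0.26, 34.5% of genes were called lower and 6.13% higher. On that scale 33 of 37 subunits and 7 of 7 assembly factors were called lower and 0 higher, with medians of -0.60 and -0.71. In the authors' deposited table, which rests on the same 6 libraries, 18 of 37 subunits and 4 of 7 assembly factors had a ratio under 1 with an adjusted p under 0.05, and 0 had a ratio over 1. There, 17.6% of genes were called lower and 18.8% higher. Beside the 16 subunits named below, the authors' deposited table called NDUFA5 and NDUFA13 (adjusted p = 0.0161 and 0.0319), and among assembly factors it called NDUFAF5 (0.0457) and not NDUFAF4 (0.0693).

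**Figure D2:**
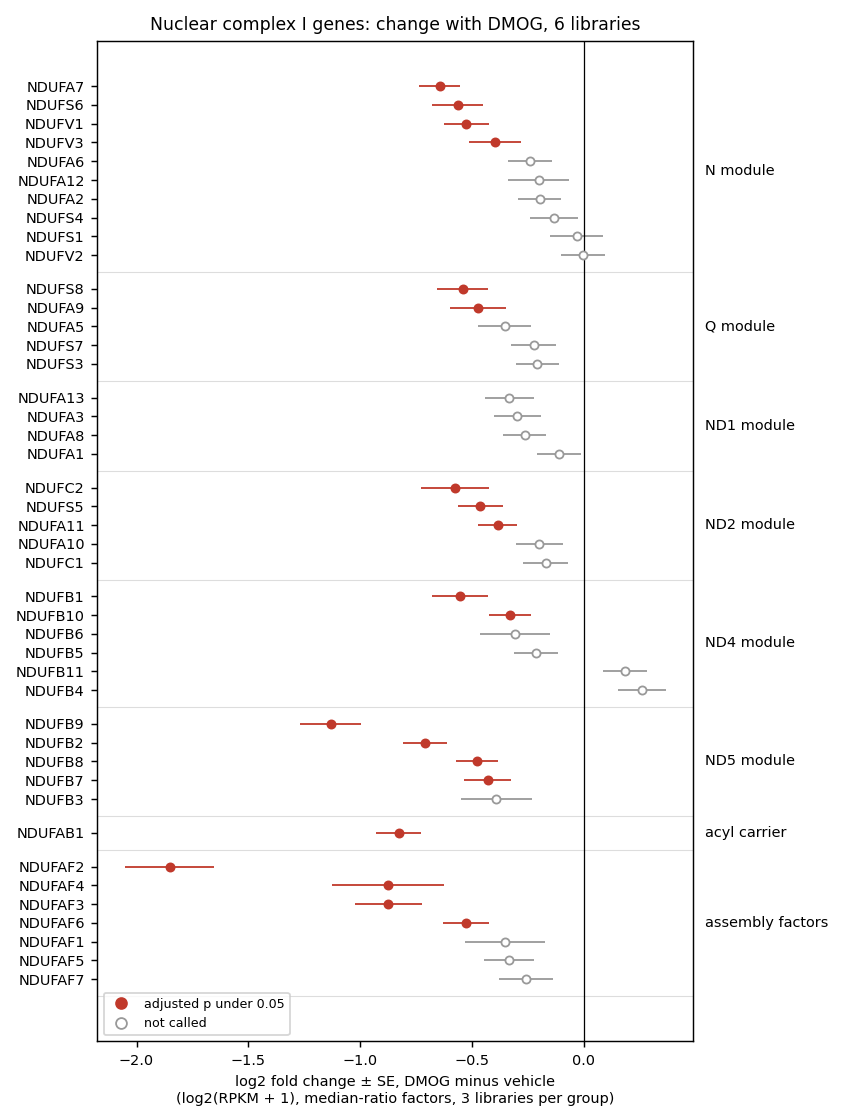
Log2 fold change, DMOG minus vehicle, with its standard error for 36 of the 37 subunits by module and the 7 assembly factors (3 libraries per group; log2(RPKM + 1), median-ratio factors). Filled red points have an adjusted p under 0.05; NDUFAF2 is farthest to the left at -1.85, and NDUFB4 and NDUFB11 are the only points right of zero (both are left of it in the RPKM as deposited).

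Assembly factors held the largest change. NDUFAF2 is a paralogue of the subunit NDUFA12 and acts late in assembly, when the N module is joined; its gene spans chromosome 5, 60240956 to 60448864, on the plus strand (all gene positions are hg19, from the deposited table). It was at 5.52, 27.0, 8.34 and 3.96 RPKM in DMOG libraries 1 to 4, against 28.7, 26.0, 26.0 and 30.4 RPKM in vehicle libraries 1 to 4. DMOG libraries 1, 3 and 4 lay far below every vehicle library, and DMOG replicate 2 lay among them. In the 6 libraries NDUFAF2 averaged 5.94 ± 2.22 RPKM with DMOG and 28.4 ± 2.23 RPKM with vehicle (SD, n = 3 each). The log2 ratio of these unscaled means was -2.25. After scaling and with the pseudocount of 1, the log2 fold change was -1.85 ± 0.20 (SE, limma adjusted p = 0.00409). In all 8 libraries the change was -1.39, without a call.

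NDUFAF3 and NDUFAF4 bind each other and help to build the Q module. NDUFAF3 (chromosome 3, 49057908 to 49060926) was at 6.82, 13.4, 8.32 and 4.96 RPKM in DMOG libraries, against 15.1, 17.1, 15.7 and 16.5 RPKM in vehicle libraries. The groups did not overlap, and DMOG replicate 2 was nearest to the vehicle libraries. The log2 fold change of NDUFAF3 was -0.87 ± 0.15 (limma adjusted p = 0.00942). NDUFAF4 (chromosome 6, 97337187 to 97345767) was scarce, at 0.619, 1.53, 1.06 and 0.0531 RPKM in DMOG libraries, the last from 4 reads, and at 2.49, 1.66, 1.89 and 1.87 RPKM in vehicle libraries. Again the groups did not overlap. Its fold change of -0.87 ± 0.25 (limma adjusted p = 0.0395) is understated by the pseudocount of 1, and its call was lost without DMOG replicate 1 and without vehicle replicate 1, 3 or 4.

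NDUFAF6, which is needed early for the Q and ND1 modules, was at 1.13, 2.06, 1.29 and 0.976 RPKM in DMOG libraries, against 2.58, 2.69, 2.35 and 2.54 RPKM in vehicle libraries. The groups did not overlap, and the change was -0.53 ± 0.10 (limma adjusted p = 0.0135), lost without DMOG replicate 1 and without vehicle replicate 1 or 4. At this level the pseudocount understates the change: in the authors' deposited table the log2 ratio of NDUFAF6 was -0.84, next to -0.85 for NDUFAB1. The remaining 3 were not called. NDUFAF1, a member of the mitochondrial complex I assembly complex, had a log2 fold change of -0.35 ± 0.18 (limma adjusted p = 0.171), and NDUFAF5, a hydroxylase that acts on the subunit NDUFS7, had one of -0.33 ± 0.11 (0.0611). NDUFAF7, a methyltransferase of the mitochondrial matrix, had the fold change nearest to zero of the 7, -0.26 ± 0.12 (0.139). It was at 2.05, 3.47, 2.73 and 2.07 RPKM in DMOG libraries and at 3.44, 2.82, 3.40 and 3.85 RPKM in vehicle libraries, and the groups overlapped.

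Assembly factors whose symbols do not start with NDUFAF were compared beside these. Of 15 such genes listed, 13 were in the table under those names. Of the 13, 9 fell and 0 rose (median -0.66), where 16.1% of all genes tested were called lower. TMEM126B, a partner of NDUFAF1 in the assembly complex, fell by 1.00 ± 0.22 on the log2 scale (limma adjusted p = 0.0188), and NUBPL, which delivers iron-sulfur clusters to complex I, fell by 0.97 ± 0.11 (0.00441). NUBPL was at 0.965, 2.76, 1.21 and 0.828 RPKM in DMOG libraries, against 3.37, 2.73, 3.44 and 3.58 RPKM in vehicle libraries, so only DMOG replicate 2 lay within the vehicle range. The 9 became 2 without DMOG replicate 1, without vehicle replicate 1 or without vehicle replicate 4, and 4 without vehicle replicate 3.

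**Figure D3:**
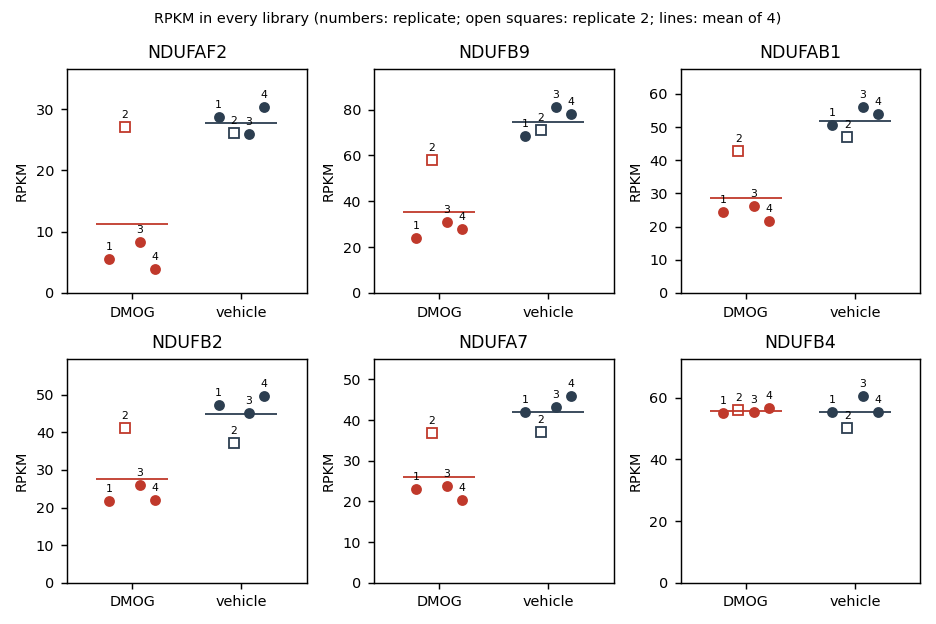
RPKM as deposited of NDUFAF2, NDUFB9, NDUFAB1, NDUFB2, NDUFA7 and NDUFB4 in each library, DMOG left of vehicle, with replicate numbers, open squares for replicate 2 and lines at the mean of 4. DMOG replicates 1, 3 and 4 lie below all vehicle libraries in the first 5 panels, and in the NDUFB4 panel the groups overlap.

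Among subunits the largest change was in the ND5 module at the tip of the membrane arm, where 4 of 5 fell (median -0.48). Of all genes tested, 16.1% were called lower, and no test between modules was made. NDUFB9, a member of the LYR protein family that holds an acyl carrier protein in the membrane arm, was at 24.1, 58.0, 31.1 and 27.8 RPKM in DMOG libraries, against 68.3, 71.1, 81.3 and 77.9 RPKM in vehicle libraries. The groups did not overlap. Its log2 fold change was -1.13 ± 0.14 (limma adjusted p = 0.00474). NDUFB2, a small membrane-arm subunit (chromosome 7, 140396481 to 140406446), was at 21.7, 41.1, 26.0 and 21.9 RPKM in DMOG libraries, against 47.4, 37.1, 45.1 and 49.5 RPKM in vehicle libraries. Only DMOG replicate 2 overlapped the vehicle range, and the change was -0.71 ± 0.10 (limma adjusted p = 0.00629).

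The other members of the ND5 module, all supernumerary, had fold changes nearer to zero. NDUFB8 was at 29.9, 52.7, 33.3 and 30.7 RPKM in DMOG libraries, against 55.2, 58.3, 53.0 and 54.2 RPKM in vehicle libraries. NDUFB7 was at 53.0, 83.8, 63.9 and 56.2 RPKM in DMOG libraries, against 97.6, 90.9, 93.6 and 96.9 RPKM in vehicle libraries. Neither overlapped as deposited, but after scaling DMOG replicate 2 lay within the vehicle range of NDUFB8. The fold changes after scaling were -0.48 ± 0.09 for NDUFB8 (limma adjusted p = 0.013) and -0.43 ± 0.10 for NDUFB7 (0.0243). Both calls were lost without DMOG replicate 1 and without vehicle replicate 1 or 4, and that of NDUFB7 also without vehicle replicate 3. NDUFB3, the fifth, was at 31.5, 46.5, 43.6 and 27.8 RPKM in DMOG libraries and at 50.2, 38.6, 59.0 and 55.6 RPKM in vehicle libraries. DMOG replicates 2 and 3 overlapped the vehicle range. Its log2 fold change of -0.39 ± 0.16 was not called (limma adjusted p = 0.102), but was with the replicate number as a block (adjusted p = 0.0334).

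NDUFAB1, the mitochondrial acyl carrier protein (chromosome 16, 23592335 to 23607639), is bound by LYR proteins of complex I such as NDUFB9 and NDUFA6 and also serves mitochondrial fatty acid synthesis. It was at 24.5, 42.7, 26.2 and 21.6 RPKM in DMOG libraries, against 50.5, 47.1, 56.2 and 54.0 RPKM in vehicle libraries. No DMOG library reached the vehicle range. NDUFAB1 averaged 24.1 ± 2.30 RPKM with DMOG and 53.5 ± 2.85 RPKM with vehicle (SD, n = 3 each). The log2 ratio of these unscaled means was -1.15. After scaling and with the pseudocount of 1, the log2 fold change was -0.83 ± 0.10 (limma adjusted p = 0.00501). NDUFA6, its LYR partner in the N module, had a fold change of -0.24 ± 0.10 and was not called (0.107).

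In the N module 4 of 10 subunits fell (median -0.22), against 16.1% of all genes tested. NDUFA7, a supernumerary subunit (chromosome 19, 8376184 to 8386280), was at 23.0, 36.7, 23.9 and 20.2 RPKM in DMOG libraries, against 42.1, 37.0, 43.3 and 45.8 RPKM in vehicle libraries, and changed by -0.64 ± 0.09 (limma adjusted p = 0.00654). The groups did not overlap, although DMOG replicate 2 and vehicle replicate 2 were almost equal. NDUFS6, a zinc-binding subunit that joins late in assembly, was at 35.9, 62.4, 45.0 and 34.2 RPKM in DMOG libraries, against 68.8, 60.0, 70.6 and 70.4 RPKM in vehicle libraries. It overlapped as deposited only through the replicate 2 libraries, and changed by -0.56 ± 0.11 (0.0142). NDUFV1, the core subunit that binds the flavin and NADH, was at 23.3, 38.9, 24.0 and 23.5 RPKM in DMOG libraries, against 46.5, 39.9, 38.2 and 42.7 RPKM in vehicle libraries, and changed by -0.52 ± 0.10 (0.0125). DMOG replicate 2 lay within the vehicle range of NDUFV1, and the other 3 were closely alike. NDUFV3, a supernumerary partner of NDUFV1, changed by -0.40 ± 0.12 (0.0436).

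The core subunits NDUFV2 and NDUFS1, which carry iron-sulfur clusters, were not called. NDUFV2 was at 46.2, 44.5, 47.3 and 38.3 RPKM in DMOG libraries, against 53.3, 56.0, 54.4 and 54.5 RPKM in vehicle libraries. These deposited values did not overlap, and the log2 fold change was -0.30 as deposited, where the median of all genes was -0.26, and -0.00 ± 0.10 after scaling (limma adjusted p = 0.99). NDUFS1, the largest core subunit, had a fold change of -0.03 ± 0.12 (0.857). NDUFA12, NDUFA2 and NDUFS4, all supernumerary, had fold changes of -0.20, -0.20 and -0.13 and were not called. Calls of NDUFS6 and NDUFV1 were lost without DMOG replicate 1 and without vehicle replicate 1 or 4, and that of NDUFV3 was lost without any one of DMOG replicates 1 and 4 and vehicle replicates 1, 3 and 4.

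In the Q module 2 of 6 fell (median -0.29), against 16.1% of all genes tested. NDUFS8, a core subunit that holds iron-sulfur clusters on the way to ubiquinone, was at 31.6, 57.1, 38.7 and 33.0 RPKM in DMOG libraries, against 65.9, 58.3, 62.5 and 58.0 RPKM in vehicle libraries, a change of -0.54 ± 0.11 (limma adjusted p = 0.0159). The groups did not overlap as deposited, with DMOG replicate 2 next to the lowest vehicle library, but after scaling DMOG replicate 2 lay within the vehicle range. The call was lost without DMOG replicate 1 and without vehicle replicate 1 or 3. NDUFA9, which binds NADPH, changed by -0.47 ± 0.13 (0.0319), a call kept only when DMOG replicate 3 was the library left out. NDUFS7 and NDUFS3, also core, had fold changes of -0.22 and -0.21 without a call. NDUFA5, at 2.53, 3.69, 2.96 and 2.55 RPKM in DMOG libraries against 3.99, 4.34, 4.68 and 4.94 RPKM in vehicle libraries, did not overlap between groups and had a fold change of -0.35 ± 0.12 (0.0617; 0.045 with the replicate block).

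In the membrane arm near the hinge, 0 of 4 ND1-module subunits were called (median -0.28), where 16.1% of all genes tested were called lower. At an unadjusted p under 0.05, 3 of 4 were lower, against 2595 of all 11122 genes tested. NDUFA13, also known as GRIM-19, was at 103, 152, 120 and 95.8 RPKM in DMOG libraries, against 156, 142, 165 and 174 RPKM in vehicle libraries. DMOG replicate 2 lay inside the vehicle range, and the log2 fold change was -0.33 ± 0.11 (limma adjusted p = 0.0584; 0.0397 with the replicate block). NDUFA3 and NDUFA8 had fold changes of -0.30 and -0.26. NDUFA1, a small subunit next to ND1, was at 59.5, 80.8, 64.1 and 56.7 RPKM in DMOG libraries and at 79.0, 71.9, 82.8 and 78.6 RPKM in vehicle libraries. DMOG replicate 2 again lay inside the vehicle range, and the fold change was -0.11 ± 0.10 (0.408).

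In the ND2 module 3 of 5 fell (median -0.38), against 16.1% of all genes tested. NDUFS5 was at 80.2, 119, 86.4 and 72.6 RPKM in DMOG libraries, against 128, 121, 135 and 144 RPKM in vehicle libraries. NDUFA11 was at 15.5, 21.7, 15.8 and 14.2 RPKM in DMOG libraries, against 24.6, 23.3, 23.4 and 26.2 RPKM in vehicle libraries. NDUFC2 was at 2.75, 4.75, 3.07 and 1.77 RPKM in DMOG libraries, against 5.58, 4.66, 4.84 and 4.90 RPKM in vehicle libraries. These supernumerary subunits of the inner-membrane arm changed by -0.46 ± 0.10, -0.38 ± 0.09 and -0.57 ± 0.15 (limma adjusted p = 0.0178, 0.0199 and 0.0309), and DMOG replicate 2 alone overlapped the vehicle libraries, in NDUFC2. The 3 calls were lost without DMOG replicate 1 and without vehicle replicate 1, 3 or 4. NDUFC1, with the fold change nearest to zero in the module, was at 16.6, 20.2, 18.8 and 16.1 RPKM in DMOG libraries and at 22.1, 21.9, 24.5 and 25.3 RPKM in vehicle libraries. As deposited the groups did not overlap, but after scaling they did, with a fold change of -0.17 ± 0.10 (0.232).

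The ND4 module was mixed, with 2 of 6 called lower (median -0.26), against 16.1% of all genes tested. NDUFB1 was at 23.4, 30.5, 26.3 and 22.2 RPKM in DMOG libraries, against 38.5, 31.9, 42.1 and 51.6 RPKM in vehicle libraries, a change of -0.55 ± 0.13 (limma adjusted p = 0.0194). The groups did not overlap, and the call was lost without DMOG replicate 1 and without vehicle replicate 3 or 4. NDUFB10 changed by -0.33 ± 0.09 (0.0378), likewise kept only when DMOG replicate 3 was left out. NDUFB6 and NDUFB5 had fold changes of -0.31 and -0.21 without a call (NDUFB6 0.169, or 0.0461 with the replicate block). NDUFB4 and NDUFB11, both supernumerary, had the highest fold changes of all subunits. NDUFB4 was at 55.1, 56.1, 55.2 and 56.5 RPKM in DMOG libraries, against 55.4, 50.1, 60.4 and 55.4 RPKM in vehicle libraries. As deposited, the DMOG values lay within the vehicle range. After scaling, DMOG libraries 1, 3 and 4 (60.6, 59.7 and 67.1) lay above every vehicle library (56.6 at most). DMOG replicate 2 stayed within the vehicle range. The log2 fold change of NDUFB4 was 0.26 ± 0.11 after scaling (limma adjusted p = 0.102) and -0.04 as deposited. NDUFB11 had a fold change of 0.19 ± 0.10 (0.183), and of -0.11 as deposited.

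Split by conservation, 2 of 7 core subunits (NDUFS8 and NDUFV1; median -0.21) and 14 of 30 supernumerary subunits (median -0.34) fell, against 16.1% of all genes tested. No test of the difference was made. In vehicle libraries the subunits ranged from 4.49 ± 0.415 RPKM for NDUFA5 to 159 ± 13.3 RPKM for NDUFA13 (SD, n = 4), so levels per length differ widely for parts of 1 enzyme. NDUFA13 and NDUFS5 were the highest, and NDUFA5 and NDUFC2 were the only subunits under 5 RPKM. Their listed lengths are 542 bases for NDUFA13, 571 for NDUFS5, 6506 for NDUFA5 and 2475 for NDUFC2. NDUFA5 had 849 to 1217 reads in vehicle libraries, so its low RPKM does not mean few reads. The assembly factors ranged from 1.98 RPKM for NDUFAF4 to 27.8 RPKM for NDUFAF2; NDUFAF1, NDUFAF2 and NDUFAF3 lay within the range of the subunits, and the other 4 lay below NDUFA5. Across the 37 subunits, the correlation of the fold change was 0.256 (Pearson) and 0.295 (Spearman) with the log2 listed length and -0.123 and -0.176 with the log2 vehicle level, a description over genes that share the same libraries. Of the entries that are no protein-coding member, NDUFA6-AS1 was tested and not called (-0.20, limma adjusted p = 0.304), NDUFB2-AS1 reached at most 0.552 RPKM, and NDUFAF4P1 and NDUFC2-KCTD14 were near 0.

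Set beside the other respiratory complexes on the same scale, the subunits of complex I had the lowest median, also in the RPKM as deposited (-0.60, against -0.47 for the ATP synthase, -0.43 for complex IV, -0.32 for complex III and -0.30 for complex II). No test of these differences was made. The counts below stand beside 16.1% of all genes tested called lower and 13.7% called higher, and those of the ATP synthase are near the share called lower. Of complex II, the succinate dehydrogenase, 0 of 4 fell and 1 rose (median -0.01), and that 1 was its flavoprotein SDHA, at 0.67 ± 0.17 (limma adjusted p = 0.0287). SDHA was at 70.9, 54.5, 77.3 and 46.2 RPKM in DMOG libraries, against 51.6, 60.5, 49.4 and 45.1 RPKM in vehicle libraries; the groups overlapped, and in the RPKM as deposited SDHA was not called. Of complex III, 3 of 9 fell (median -0.03), with UQCRQ lowest at -0.42. Of complex IV, 1 of 12 tested fell (median -0.13), and that 1 was NDUFA4, long counted as a complex I subunit, at -0.49 ± 0.10 (0.0148). Of the ATP synthase genes listed, 3 of 16 fell (median -0.17). They include ATPIF1 (-0.53), which encodes an inhibitor of the enzyme and not a subunit. ATP5G1, a gene for the membrane ring subunit c, fell most, with a change of -1.56 ± 0.19 (0.00473), larger than that of any complex I subunit. Genes ATP5G2 and ATP5G3, which encode the same mature subunit c, had fold changes of 0.20 and 0.05 and were not called. The 7 genes of complexes II to V called lower, ATPIF1 among them, became 1 without DMOG replicate 1 or without vehicle replicate 1 or 4, and 27 in the RPKM as deposited.

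**Figure D4:**
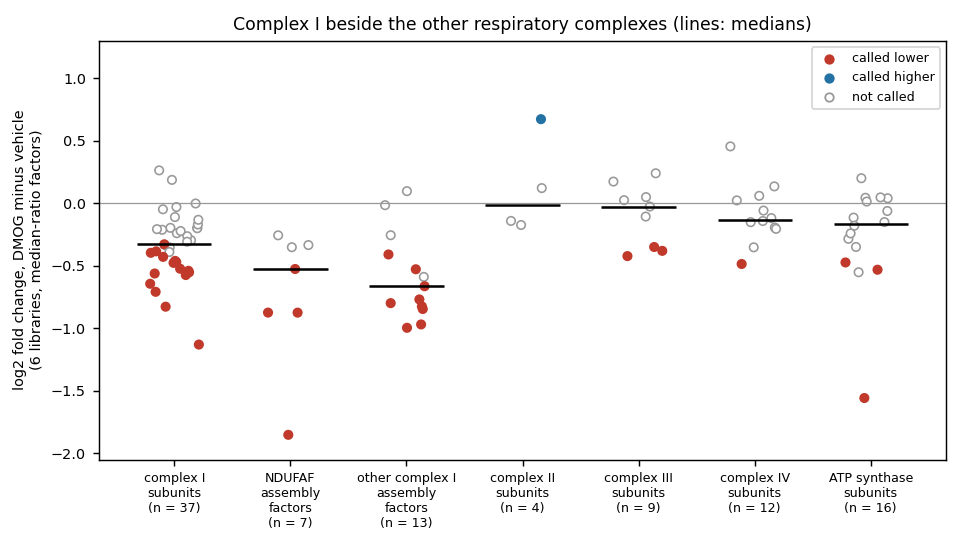
Log2 fold change, DMOG minus vehicle, of each tested gene of complex I, its assembly factors, complexes II to IV and the ATP synthase (6 libraries, median-ratio factors), with black lines at the medians. Complex I subunits center on -0.33 and the 2 groups of assembly factors on -0.53 and -0.66, while the medians of the other complexes lie between -0.17 and -0.01.

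Of 10 regulators of nuclear genes for mitochondrial proteins, 8 were tested, and 1 fell and 0 rose, against 16.1% of all genes tested called lower. TFB2M, a mitochondrial transcription factor, fell by 0.94 ± 0.28 on the log2 scale (limma adjusted p = 0.0445). NRF1, a transcription factor of many respiratory genes, had a log2 fold change of 0.58 ± 0.19 that was not called (0.0598).

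Many complex I genes share a short start region with a gene on the opposite strand. Compared were 17 such pairs, with starts at most 1000 bases apart and both genes tested. NDUFA6 with NDUFA6-AS1 also meets these limits but was left out, because the partner is itself among the genes taken by symbol. Of the 17 partners, 5 fell, 2 rose and 10 were not called, where 16.1% of all genes tested were called lower and 13.7% higher. NDUFAF2 and ERCC8, a gene of transcription-coupled DNA repair, start 51 bases apart. ERCC8 was at 0.539, 2.00, 0.897 and 0.540 RPKM in DMOG libraries, against 2.10, 2.25, 1.66 and 2.15 RPKM in vehicle libraries, and only DMOG replicate 2 lay within the vehicle range. ERCC8 fell by 0.68 ± 0.13 on the log2(RPKM + 1) scale (limma adjusted p = 0.012), which the pseudocount understates at this level, so the size is not set against that of NDUFAF2. NDUFB9 and TATDN1, a putative nuclease gene, start 14 bases apart, and TATDN1 fell by 0.63 ± 0.13 (0.0136). In 4 pairs the complex I gene fell and the partner was not called: NDUFA7 with the ribosomal protein gene RPS28 (0.37), NDUFAF3 with DALRD3 (0.05), NDUFB1 with CPSF2 (-0.33) and NDUFA11 with VMAC (-0.14). In 3 pairs only the partner fell, and in 2 the partner rose, FAM126B beside NDUFB3 (0.56) and TSSK6 beside NDUFA13 (0.50). TSSK6 lay near the minimum of 1 RPKM, which it reached in every DMOG library but only in replicate 2 of vehicle. It was at 1.53, 1.10, 1.09 and 1.18 RPKM in DMOG libraries, against 0.742, 1.26, 0.816 and 0.753 RPKM in vehicle libraries. Across the 17 pairs the Pearson correlation of the changes was 0.286 and the Spearman correlation 0.147, a description over genes of the same libraries. NDUFAF3 and DALRD3 overlap by 597 bases and NDUFB2 and NDUFB2-AS1 by 397. NDUFC1 and NAA15 overlap by 1030 bases, NDUFB6 and TOPORS-AS1 by 13335, and NDUFV2 and LOC101927275 by 13081. The sources used here do not state how strand was handled, so the values of these genes are uncertain.

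**Figure D5:**
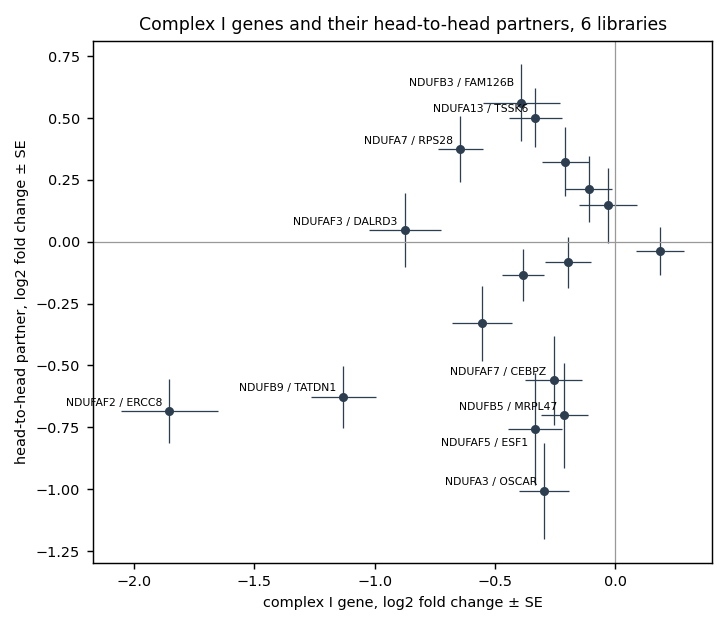
Log2 fold change ± SE of 17 complex I genes (horizontal) and of the gene that starts on the opposite strand within 1000 bases (vertical), DMOG minus vehicle in the 6 libraries. NDUFAF2 with ERCC8 and NDUFB9 with TATDN1 lie at the lower left, and NDUFA7 with RPS28 lies above the horizontal zero line.

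Promoters were read from RefSeq (GRCh38.p14), 250 bases before to 50 after each start, and were found for 32 subunits and 6 assembly factors. Each window was searched on both strands. The HIF core ACGTG was in 9 of 32 subunit windows (28.1%), against 21.6% of all 27305 windows and 27.4% of the windows of genes tested here. It was in 4 of 13 windows of subunits called lower and in 5 of 19 of those not called. The NRF1 core site GCATGCGC was in 5 of 32 subunit windows (15.6%) and in 2 of 6 assembly factor windows, against 3.27% of all windows and 5.75% of those of genes tested. It was in 1 of 13 subunits called lower and in 4 of 19 not called. The YY1 motif AAGATGGC was in 6 of 32 subunit windows (18.8%), against 3.03% of all windows and 6.08% of those of genes tested. The ETS motif CCGGAAGT was in 2 of 32 (6.25%), against 4.44% of all windows and 9.48% of those of genes tested. These matches are letters in a window and no measured binding.

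Upstream stretches of 150 bases, ending at the base before the start, are given for NDUFAF2, the gene with the largest fall, for NDUFA7, which fell and holds the HIF core, for NDUFAF5, which holds it and was not called, and for NDUFS7, which holds the NRF1 core site and was not called. In its full window NDUFS7 also holds the HIF core and the YY1 motif. NDUFA7 also holds the YY1 motif in its window, and NDUFAF5 the NRF1 core site. These further matches are not marked in the stretches. Capitals mark the HIF core on either strand (ACGTG or CACGT, which overlap in CACGTG) in NDUFA7 and NDUFAF5, and the NRF1 core site in NDUFS7. The stretches are NDUFAF2 chr5:60945055-60945204 (plus strand), NDUFA7 chr19:8321376-8321525 (minus), NDUFAF5 chr20:13784878-13785027 (plus) and NDUFS7 chr19:1383757-1383906 (plus).
NDUFAF2: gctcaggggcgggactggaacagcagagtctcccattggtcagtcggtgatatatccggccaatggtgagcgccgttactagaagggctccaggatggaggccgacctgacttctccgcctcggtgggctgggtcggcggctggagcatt
NDUFA7: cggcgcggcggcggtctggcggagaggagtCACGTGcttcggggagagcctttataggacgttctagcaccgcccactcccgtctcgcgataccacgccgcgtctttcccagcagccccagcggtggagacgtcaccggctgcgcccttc
NDUFAF5: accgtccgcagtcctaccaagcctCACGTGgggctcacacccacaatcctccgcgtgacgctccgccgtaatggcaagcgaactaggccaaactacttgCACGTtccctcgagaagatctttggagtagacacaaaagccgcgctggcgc
NDUFS7: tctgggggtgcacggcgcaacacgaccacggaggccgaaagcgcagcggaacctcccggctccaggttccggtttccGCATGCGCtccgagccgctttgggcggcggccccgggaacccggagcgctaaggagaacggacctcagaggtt

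Sequence copies limit some values. Named pseudogenes in the reference gene list numbered 12 each for NDUFA5 and NDUFB4, 6 for NDUFS5, 5 for NDUFA3, 4 for NDUFAF4, 3 for NDUFB9 and 2 for NDUFAF2. The sources used here do not state how reads that map to several places were counted. In this respect these values are less certain than those of NDUFA7 and NDUFV1, which had 0 named pseudogenes.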

How the data were processed

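RNA sequencing of 4 DMOG and 4 vehicle libraries (NEBNext Ultra kit, per the labels) was used. The authors deposited RPKM values for 25369 genes in a table named as counts, and for each tested gene normalized group means (a signal scale), their ratio, log2 ratio and p-values, per the file headers. The submitters' processing notes name TopHat2 2.0.13 and HTSeq 0.6.1 among other tools, without roles, and the builds hg19 and hg38; the table's positions are hg19.

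RPKM times listed length gave whole reads for 100% of values (largest deviation 0.000215 reads). RPKM was divided by median-ratio factors and tested on log2(value + 1) with limma 3.58.1 (trend, robust, R 4.3.3) for genes at 1 RPKM or more in at least 4 of 8 libraries, two-sided, with Benjamini-Hochberg adjustment over all 11122 genes and a threshold of 0.05. The procedure was tested on simulated data without a deviating library or shared replicate effects, a simpler setting than these data. Per-library values are given for called assembly factors, the 12 called subunits with the lowest p and the extremes of each module and of level. The members and gene lists were chosen with earlier results of these data known. Replicate numbers come from the sample titles; in the 6 libraries, the deviations of same-numbered libraries correlated at 0.466, 0.397 and 0.341, so a fit with the replicate number as a block is given where it changes a call. In the 8 libraries the correlation was 0.529 at most and -0.02 for number 2, so there the numbers were not taken to pair. Alternatives were other scaling, filters, pseudocounts, limma-voom, the block and leaving out each library. 1 subunit is counted in the totals and not reported here.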

Additional observations from a re-analysis of the deposited data

Results flagged for a closer look

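In 4 of 88 sets of 4 libraries (44 genes, NDUFA6-AS1 among them, in DMOG and in vehicle), 1 library stood apart from the other 3, with a gap to its neighbour above Dixon's 95% critical share of the range; chance alone gives about 1 in 20. NDUFV1 was highest in DMOG replicate 2, at 38.88 RPKM, and NDUFB8 likewise at 52.65 RPKM. In vehicle libraries, NDUFA3 was lowest in replicate 2 at 68.3 RPKM and NDUFA9 highest in replicate 3 at 25.57 RPKM. The DMOG values are those of the library that lay near the vehicle libraries in CA9 and NDUFA4L2.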

How the results depend on the processing

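With the 6 libraries, the RPKM as deposited gave 33 subunits and 7 assembly factors lower and a subunit median of -0.60, against -0.45 for the 8 libraries. On that scale the median of all genes was -0.26 in the 6 libraries and -0.18 in the 8 libraries. Leaving out 1 library of the 6 gave 4 to 20 subunits and 2 to 6 assembly factors lower, with a subunit median of -0.39 to -0.30, and leaving out 1 of the 8 gave 0 to 18 subunits lower. Changes of sign occurred in genes that were not called: NDUFB11 (-0.11) and NDUFB4 (-0.035) in the RPKM as deposited, and NDUFV2 with upper-quartile factors (0.027) and limma-voom (0.015). Leaving out 1 library gave -0.10 to 0.066 for NDUFS1 and -0.036 to 0.057 for NDUFV2. The cause was not tested. With the replicate block, 20 subunits were lower in the 6 libraries, all 20 called genes were kept and 4 were newly called, and in the 8 libraries 0 were lower. Without a filter 4 of the 20 calls were lost, with limma-voom 1 and with a pseudocount of 0.1 also 1, while upper-quartile factors, a filter of 1 RPM, a pseudocount of 5 and the addition of vehicle replicate 2 lost 0. Counts for the other assembly factors and for complexes II to V under these settings were added after seeing the data. For limma in the 6 libraries, the share of all genes called lower is given only for the main fit and the RPKM as deposited. Most core subunits were not called. Whether 3 libraries per group would detect changes as small as theirs was not tested.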
